A study of Mus musculus with 12 samples.

Results

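The genes described here encode 9 RNA-binding proteins of neuronal RNA granules that set where and when mRNAs are translated: Cpeb1, Cpeb2, Cpeb3, Cpeb4, Stau1, Stau2, Pum2, Fmr1 and Tia1. They were chosen by gene name, and all 9 were listed in each of the 4 count tables, among 14360 genes listed in all 4 and 17986 listed in any. RNA was sequenced from the hippocampus of C57BL6/J mice, either from the whole homogenate (labelled HOM) or from a synapse fraction (labelled SYN), in an arm C and an arm L. The column headers name C as control and L as learned or training, or give only the letters C and T. HOM had 3 libraries of C and 3 of L, all from day 6, and SYN had 1 library of each arm on each of days 1, 6 and 20. No age, sex, training protocol or preparation of the synapse fraction is given in the labels. Nor is it stated that each library is a different animal, and the p-values therefore cover the spread among these libraries alone, which could be technical.

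In neurons, many mRNAs travel into dendrites in granules in which translation is held back, and synaptic activity can release them for local protein synthesis. CPEB proteins bind a U-rich element in the 3′ UTR, the cytoplasmic polyadenylation element, and control the length of the poly(A) tail and translation. Staufen proteins bind double-stranded RNA and take part in dendritic mRNA transport. Pumilio proteins and FMRP, the protein lost in fragile X syndrome, mostly repress translation, and TIA-1 gathers untranslated mRNAs into stress granules. The values below are levels of the mRNAs that encode these proteins, not of the proteins or of the mRNAs they bind.

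The element that CPEB proteins recognise was looked for in the mRNAs of the 9 genes themselves. In the last 200 bases of the longest annotated 3′ UTR of each gene (GENCODE M21, GRCm38, the build called mm10), read on the transcript strand only, the letters TTTTAT, with T for U, stood once each in Cpeb2, Fmr1 and Tia1 and were not found in the other 6. The same letters stood in 22.6% of 15148 windows of that length over all listed genes. TGTANATA, the letters of the Pumilio element, stood in 0 of the 9 windows and in 7.63% of all windows. A match describes the letters and does not show binding. No other form of the CPEB element was looked for. The 3 matches are shown as examples of these letters in the mRNAs measured here, 5′ to 3′ in DNA letters with the element in capitals. They lie on the plus strand at chr5:43289554-43289583 (Cpeb2), chrX:68717917-68717946 (Fmr1) and chr6:86433216-86433245 (Tia1), with 153, 29 and 172 bases between the element and the transcript's end.
Cpeb2: taatttagtttaTTTTATtgttatcttcca
Fmr1: ctagatgtaaatTTTTATtaaaaagttgca
Tia1: ctaaaaactaatTTTTATtggtctagtgac

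Library totals ran from 9100192 to 15950350 counts, so a count of 0 allows up to 3 counts, or 0.188 to 0.330 CPM (scaled by library total, with no TMM factor). All 8 neuronal and all 8 hippocampal subfield markers checked were present at 1 CPM or more in both fractions. Both day 6 SYN libraries stood apart from the rest. Their scaling factors by TMM (trimmed mean of M values, which sets the bulk of genes level between libraries) were 0.653 and 0.713, against 0.974 to 1.00 in SYN of days 1 and 20 and 1.10 to 1.18 in HOM. Mitochondrially encoded transcripts took 2.83 to 3.05% of their counts, against 2.36 to 2.71% and 0.314 to 0.516%. HOM L replicate 1 carried 8 liver markers at a summed 2384 CPM, where every HOM C library and every SYN library of days 1 and 20 had under 1 CPM, and the day 6 SYN libraries had 35.2 and 169 CPM.

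Per kilobase of annotated exon, Cpeb4 and Stau2 were the highest of the 9 in the homogenate and Pum2 by far the lowest. In CPM, with no division by length, Tia1 was the highest of the 9, at 281 ± 13.8 CPM (SD, n = 6). The divisor was the union of all annotated exons of a gene, which can exceed the length of its mRNA. Tia1 had the longest union, so its place in the order below depends on this divisor. On the scale of CPM per kilobase of annotated exon, the level over the 6 HOM libraries was 31.0 ± 0.793 for Cpeb4, 30.8 ± 1.995 for Stau2 and 25.7 ± 3.52 for Cpeb1 (SD, n = 6), and the ranges of these 3 overlapped. A middle group followed with Cpeb3 at 19.1 ± 0.519, Cpeb2 at 18.4 ± 1.56, Tia1 at 17.8 ± 0.875 and Fmr1 at 16.3 ± 1.13 (SD, n = 6), each overlapping its neighbour in that order. Stau1 at 12.7 ± 1.03 and Pum2 at 1.08 ± 0.188 (SD, n = 6) did not overlap the gene above them. Tia1 (exon union of 15750 bases) overlaps the coding gene Gm44790 on its own strand and Cpeb3 overlaps March5 on the other strand, and the strand setting of the counting is not given in the sources used here, so shared reads cannot be told apart for them.

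In the SYN libraries of days 1 and 20 that order differed at the top, with Stau2 at 25.3 to 26.6 CPM per kilobase above Cpeb4 at 19.1 to 21.3 and Cpeb1 at 14.35 to 16.1, with no overlap between these 3. Stau1, at 9.66 to 11.4 CPM per kilobase, lay above Tia1 (7.72 to 9.41) and Fmr1 (7.81 to 9.08), which in the homogenates both lay above Stau1. In CPM, with no division by length, Stau1 (58.6 to 68.9) lay below both Tia1 (121.5 to 148) and Fmr1 (70.0 to 81.4) in these SYN libraries.

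**Figure D1:**
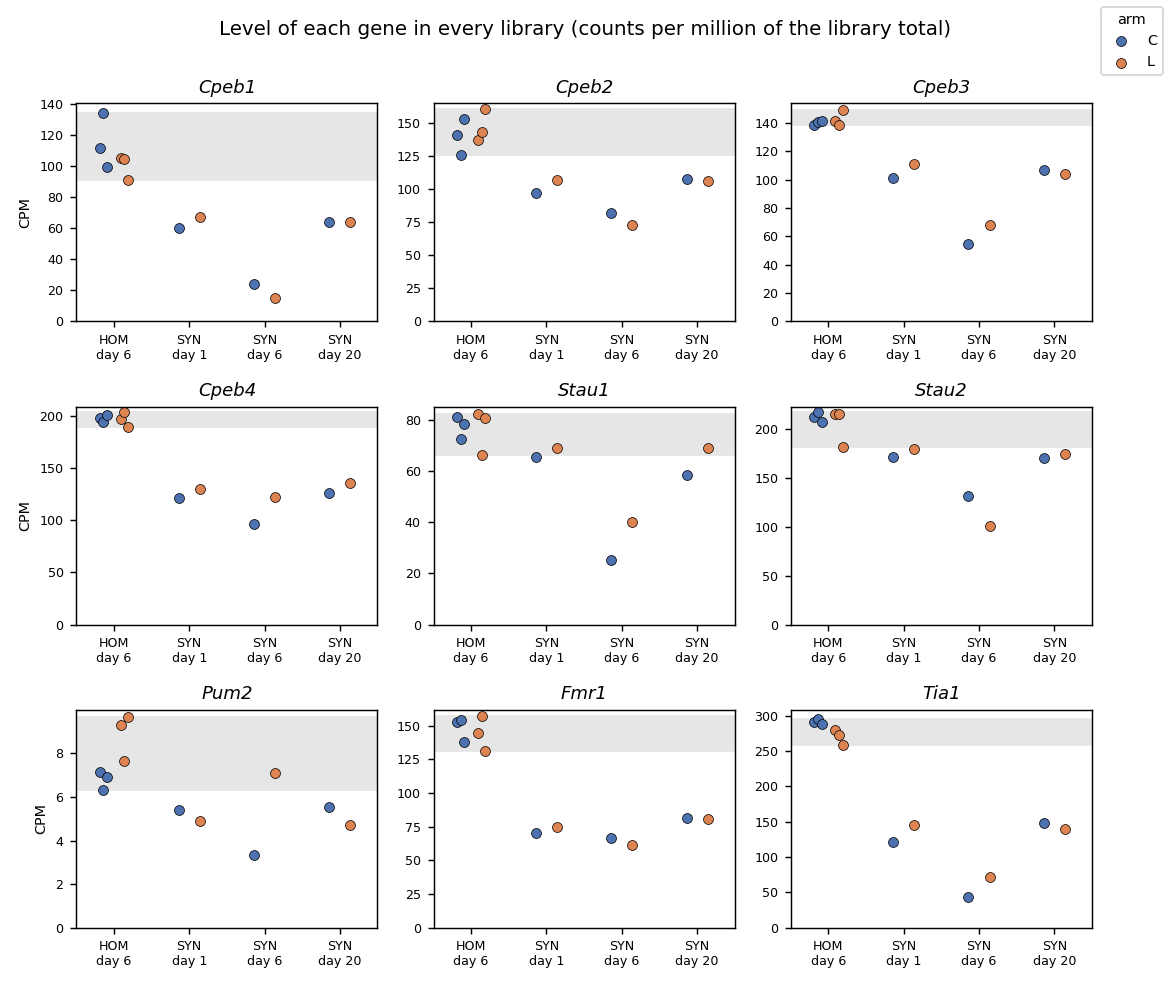
CPM of each gene in every library, with the homogenates (HOM) and the synapse fraction (SYN) by day on the x axis, 1 point per library, arm C in blue, arm L in orange and the range of the 6 homogenates as a grey band. In SYN of days 1 and 20 all genes shown but Stau1 lie below the band, as did 35.4% of all genes. In SYN of day 6 all genes shown but Pum2 lie below it, as did 57.1% of all genes. Both day 6 SYN libraries lie below the other SYN libraries for Cpeb1, Cpeb2, Cpeb3, Stau1, Stau2, Fmr1 and Tia1, as for 55.6% of all genes. Among these, Cpeb1 stands at 15.2 and 23.9 CPM and Tia1 at 43.3 and 71.8 CPM on day 6.

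The synapse fraction of days 1 and 20 held less of 6 of the 9 mRNAs than the homogenate, with the largest differences for Tia1 and Fmr1, and no member passed as higher. This comparison sets 4 SYN libraries against 6 HOM libraries with arm in the fit (quasi-likelihood test of edgeR, Benjamini-Hochberg adjusted p under 0.05 over 13850 genes). Of all genes tested, 58.6% passed, 30.1% as lower in SYN, and the median over all genes was -0.04 on the log2 scale, against a median of -0.39 over the 9. Day and fraction cannot be told apart here, since HOM came from day 6 alone, and the HOM libraries stand in a table of their own. On the CPM scale the SYN libraries lay below every HOM library for 8 of the 9, the exception being Stau1, against 35.4% of 13079 genes. On the TMM-scaled CPM it was 7 of 9, without Stau2, against 22.9%.

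Among the CPEB genes, Cpeb1, which encodes the founding member of the family, had 60.2, 67.5, 64.1 and 63.7 CPM in SYN C day 1, L day 1, C day 20 and L day 20. In HOM it had 111, 134 and 99.4 CPM in C and 105, 104.5 and 91.2 CPM in L. The SYN libraries all lay below the homogenates, and the log2 difference was -0.56 (SE 0.09, edgeR adjusted p = 6.85e-05), 0.679-fold. Cpeb4, which encodes a CPEB family member with an RNA-binding region much like those of CPEB2 and CPEB3, had 122 to 136 CPM in SYN against 189 to 203.5 CPM in HOM, which is -0.43 on the log2 scale (SE 0.06, edgeR adjusted p = 5.68e-06). Cpeb2 (96.9 to 107 against 126 to 160 CPM) and Cpeb3 (101 to 111 against 138.5 to 149 CPM) were lower by less, with log2 differences of -0.26 (SE 0.07) and -0.23 (SE 0.06, edgeR adjusted p = 0.00217 and 0.001995).

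The Staufen genes differed from the CPEB genes in that neither passed. Stau1 had 65.4, 68.9, 58.6 and 68.9 CPM in SYN and 66.4 to 82.4 CPM in HOM, ranges that overlap, and its log2 difference was -0.04 (SE 0.07, edgeR adjusted p = 0.674). Stau2, the brain-enriched Staufen gene, had 171 to 179 CPM against 181 to 217 CPM, and its log2 difference was -0.07 (SE 0.06, edgeR adjusted p = 0.394). Scaled to library totals alone, the log2 differences of Stau1 and Stau2 were -0.24 and -0.26 and both passed (adjusted p = 0.0134 and 0.00121 in edgeR), beside a median of all genes of -0.24 on that scale, so relative to the bulk of genes both stood near 0 under either scaling.

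Of the repressors, Fmr1 had 70.0, 75.0, 81.4 and 80.7 CPM in SYN and 153, 154.5 and 138 CPM in HOM C and 144, 157 and 131.5 CPM in HOM L. The groups did not overlap, and the log2 difference was -0.74 (SE 0.08, edgeR adjusted p = 3.2e-07), 0.599-fold, which placed Fmr1 at percentile 7.45 of the genes tested, counted from the lowest. Of its paralogues, Fxr1 was lower in SYN as well (log2 difference -0.39, SE 0.07, edgeR adjusted p = 0.000148). Fxr2 passed as higher with TMM scaling (0.22, SE 0.06, edgeR adjusted p = 0.00624), while its CPM overlapped, at 79.9 to 90.7 in SYN and 76.6 to 93.3 in HOM. Pum2 had 4.72 to 5.53 CPM in SYN, from 50 to 72 counts a library, and 6.30 to 9.67 CPM in HOM, and its log2 difference of -0.39 (SE 0.17) did not pass (edgeR adjusted p = 0.0611).

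Tia1, of the stress granule core, had the largest difference of the 9. It stood at 122, 145, 148 and 140.1 CPM in SYN and at 292, 295.5 and 288 CPM in HOM C and 280, 272 and 259 CPM in HOM L. Every SYN library was far below every homogenate, and the log2 difference was -0.83 (SE 0.07, edgeR adjusted p = 1.70e-08), 0.564-fold, at percentile 5.21 of the genes tested. The log2 difference of its paralogue Tial1 was -0.73 (SE 0.08, edgeR adjusted p = 6.51e-07), with 98.7 to 114 CPM in SYN and 184 to 239.5 CPM in HOM.

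Markers of other cell types moved with the fraction. The summed level of 8 astrocyte markers was 16020 to 16450 CPM in SYN of days 1 and 20 against 8826 to 10350 CPM in HOM, that of 8 myelin markers 10300 to 12020 against 2288 to 3830 CPM, and that of 8 microglia markers 588 to 710.1 against 204 to 265 CPM. The 8 choroid plexus markers summed to 4667 to 5908 against 1403 to 3519 CPM. The 8 hippocampal subfield markers were lower in SYN, at 1858 to 2027 against 2043 to 2947 CPM. Ranges overlapped for the neuronal markers (8292 to 9576 against 7702 to 8852 CPM), the endothelial markers (318 to 489.9 against 302 to 346 CPM) and the meningeal markers (672 to 984 against 173 to 1251 CPM). Those of 6 pituitary markers overlapped as well (53.4 to 581 against 1.61 to 80.8 CPM). The part of all these markers in the differences of the 9 genes was not tested. In such bulk samples fewer cells of a type and less RNA per cell cannot be told apart.

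**Figure D2:**
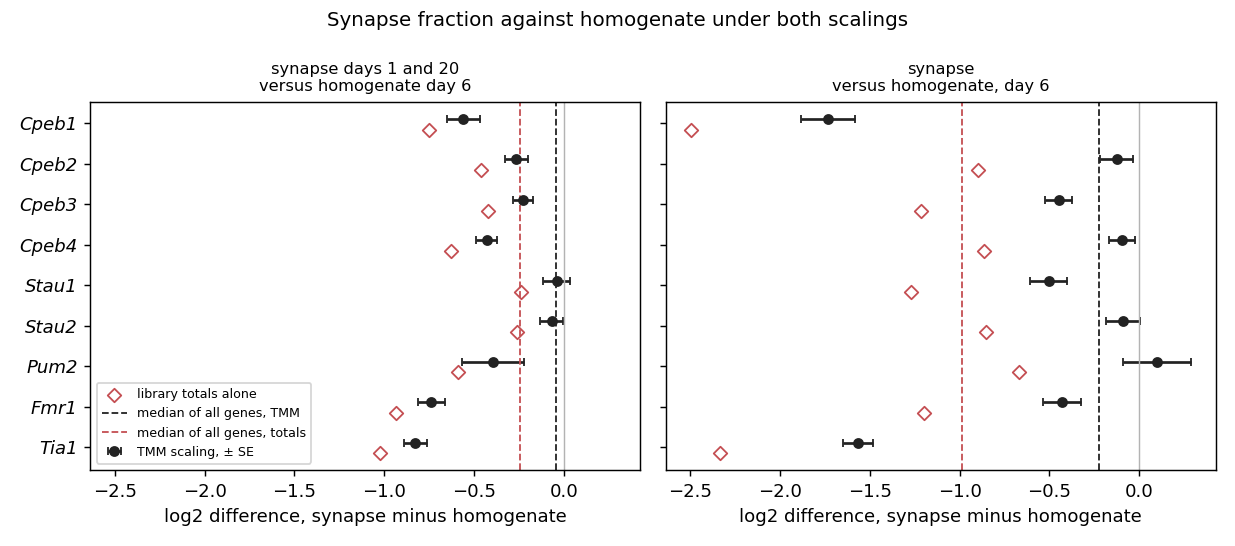
Log2 difference of each gene, synapse fraction minus homogenate, with SYN of days 1 and 20 on the left and of day 6 on the right. Filled points with bars are edgeR estimates ± SE with TMM scaling, open diamonds the estimates on library totals alone, and dashed lines the median of all genes under each scaling. Cpeb1 and Tia1 lie furthest below the median on day 6, at -1.73 and -1.57, and Fmr1 and Tia1 on the left, at -0.74 and -0.83.

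Within day 6, the comparison of 2 SYN with 6 HOM libraries put Cpeb1 and Tia1 furthest below the homogenates of the 9, on library totals and with TMM scaling alike. With TMM the log2 differences of Cpeb1, Cpeb3, Stau1 and Tia1 were further below 0 than in SYN of days 1 and 20 and those of Cpeb2, Cpeb4 and Fmr1 nearer to it, while in CPM Cpeb4 and Fmr1 were lower on average on day 6 (109 and 63.9 against 128 and 76.8). It used the same 6 homogenates, so it is no separate test of the fraction, and its lone SYN library of each arm is assumed to vary like the homogenates. Here 67.3% of 14137 genes passed in edgeR, 38.5% as lower in SYN, and 5 of the 9 passed, all as lower: Cpeb1, Cpeb3, Stau1, Fmr1 and Tia1. The scaling matters in this comparison, because the median over all genes was -0.22 with TMM and -0.99 on library totals. Of the calls over all genes, 57.3% were lower and 42.7% higher with TMM, against 78.1% and 21.9% on library totals. On library totals all 9 genes passed as lower, where 11151 of 14137 genes passed in either direction. For SYN of days 1 and 20 the lower calls were 51.3% with TMM and 67.5% on library totals. There all 9 also passed as lower, where 8723 of 13850 genes passed in either direction. Without the SYN library of arm C the contrast was that of arm L alone, with 1 SYN library, and Stau1 stood at -0.23 against -0.50 with both. Without that of arm L it was that of arm C alone, and Fmr1 stood at -0.32 against -0.43 with both.

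Cpeb1 had 23.9 CPM (365 counts) in SYN C and 15.2 CPM (177 counts) in SYN L, against 91.2 to 134 CPM in HOM. Both libraries were far below the homogenates, and the log2 difference was -1.73 (SE 0.15, edgeR adjusted p = 6.92e-06), or -1.51 relative to the median of all genes. Tia1 had 43.3 and 71.8 CPM in SYN C and L, against 259 to 295.5 CPM, and its log2 difference was -1.57 (SE 0.08, edgeR adjusted p = 2.18e-07), or -1.34 relative to the median. Their percentiles among all genes, from the lowest, were 11.2 and 12.3, so many other mRNAs were lower still.

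Cpeb3 (54.9 and 67.7 CPM against 138.5 to 149), Stau1 (25.4 and 39.99 CPM against 66.4 to 82.4) and Fmr1 (66.7 and 61.1 CPM against 131.5 to 157) had log2 differences of -0.45 (SE 0.08), -0.50 (SE 0.10) and -0.43 (SE 0.10), with edgeR adjusted p from 0.000551 to 0.00487. Relative to the median of all genes these were -0.22, -0.28 and -0.21. Cpeb2, Cpeb4 and Stau2 did not pass, with log2 differences of -0.13, -0.10 and -0.09 that lay above the median of all genes by 0.10, 0.13 and 0.14. Leaving out 1 SYN library left the contrast of the other arm alone, and the directions of Cpeb2, Cpeb4 and Stau2 turned there. Cpeb2 and Stau2 stood at 0.06 and 0.14 within arm C, and Cpeb4 at 0.01 within arm L. Pum2, from 51 and 83 counts, stood at 0.10 (SE 0.19) with TMM and at -0.67 on library totals, where the direction flips. On the CPM scale 8 of the 9, without Pum2, lay below every homogenate in both SYN libraries, against 57.1% of all genes, and on the TMM-scaled CPM it was 5 of 9 against 31.8%. On day 6 the astrocyte markers summed to 20230 to 21850 CPM in SYN, the microglia markers to 826 to 943 CPM and the neuronal markers to 10890 to 11130 CPM, all above the homogenates. The subfield markers (1637 to 1713 CPM) and the endothelial markers (109 to 138 CPM) lay below them, and the microglial Csf1r was at 0. The myelin (3606 to 4219 CPM), choroid plexus (3432 to 3989 CPM), meningeal (762 to 845 CPM) and pituitary markers (8.85 to 12.8 CPM) overlapped the homogenates, and the part of these markers was not tested here either.

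Shares within the set do not depend on how libraries are scaled. Of the summed counts of the 9 genes, Tia1 took 20.7 to 22.0% in the 6 homogenates, 14.95 to 17.1% in SYN of days 1 and 20 and 8.20 and 12.9% in SYN C and L of day 6, with no overlap between the 3 sets. The share of Stau2 moved the other way, with 14.5 to 16.5% in HOM and 19.65 to 21.05% in SYN of days 1 and 20. On day 6 it took 24.9% in SYN C and 18.1% in SYN L, above and below those SYN libraries. Shares add to a fixed whole, so a lower share of a gene raises those of others. In CPM Stau2 was lower in SYN of days 1 and 20 than in HOM (171 to 179 against 181 to 217). Within the 4 CPEB genes, Cpeb1 took 15.5 to 22.6% of the counts in HOM and 15.55 to 16.3% in SYN of days 1 and 20, ranges that overlap. On day 6 it took 9.295% in SYN C (exact 95% interval 8.40 to 10.25%) and 5.46% in SYN L (4.71 to 6.30%). Cpeb4 took 37.6 and 43.9% of the CPEB counts in these libraries, against 31.1 to 34.5% in all others. These intervals hold counting error alone, because PCR reads without molecular identifiers are not independent molecules. In CPM the 9 together made up 1310 ± 31.2 CPM in HOM (SD, n = 6), 862 ± 33.5 CPM in SYN of days 1 and 20 (SD, n = 4) and 559 and 527 CPM in the day 6 SYN libraries.

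**Figure D3:**
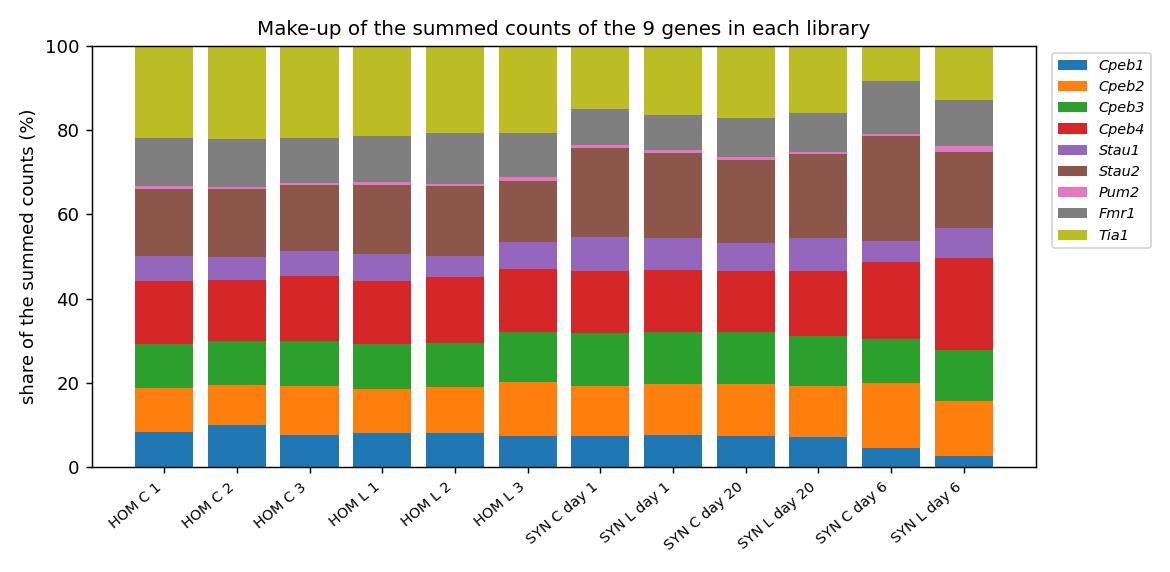
Share of each gene in the summed counts of the 9 genes, in percent, with 1 stacked bar per library. The homogenates and the SYN libraries of days 1 and 20 each look alike, while the 2 day 6 SYN bars at the right have thinner Cpeb1 (4.54 and 2.71%) and Tia1 segments and differ from each other in Stau2 (24.9 and 18.1%).

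The day 6 SYN pair was also set against the other SYN days, in a fit of the 6 SYN libraries with arm and day. With TMM scaling 33.5% of 13363 genes passed in edgeR and 15.2% were lower on day 6, and of the 9 genes Cpeb1 (log2 difference -1.20, SE 0.22), Tia1 (-0.79, SE 0.15) and Stau1 (-0.52, SE 0.14) passed as lower (edgeR adjusted p = 0.0072, 0.00859 and 0.0351). The call of Stau1 ended without SYN C day 1 (adjusted p = 0.173), C day 20 (0.0643) or L day 20 (0.0687, all in edgeR). Leaving out a day 6 library leaves 1, so the spread then comes from days 1 and 20 alone, and such calls are not counted here. With both day 6 libraries in the fit there were 4470 calls over all genes. The calls were 45.5% lower and 54.5% higher with TMM, against 77.9% and 22.1% on library totals. The other 6 did not pass in edgeR with TMM, although Cpeb4 passed as higher with limma-voom (adjusted p = 0.0416) and with RLE scaling (0.0454, edgeR). Of these 6, Cpeb2, Cpeb4, Pum2 and Fmr1 lay above 0 with TMM (0.08, 0.27, 0.48 and 0.25) and below it on library totals (-0.43, -0.24, -0.03 and -0.26), beside medians of all genes of -0.08 and -0.59. On the CPM scale both day 6 libraries lay below all 4 others for 7 of the 9, against 55.6% of all genes. On the TMM-scaled CPM 4 of 9 did so (Cpeb1, Cpeb3, Stau1 and Tia1), against 30.2%, and Cpeb4 and Fmr1 lay above. Only the day 6 columns carry the word Input, so among SYN libraries the day and whatever that naming stands for cannot be told apart.

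Between days 20 and 1 none of the 9 passed, as 0% of all genes did in edgeR, with 14 at an unadjusted p under 0.05 and 0 genes called by DESeq2. The spread in this fit also takes in the day 6 pair, whose arms differed more. The median absolute deviation of its log2 ratios over all genes was 0.40, against 0.14 on day 1 and 0.14 on day 20. The lack of calls therefore does not show that days 1 and 20 were alike. The log2 differences of the 9 ran from -0.09 for Stau1 to 0.15 for Fmr1, and the SE from 0.10 for Cpeb4 to 0.53 for Pum2. Fmr1, at the upper end of that range, had 81.4 and 80.7 CPM on day 20 and 70.0 and 75.0 CPM on day 1 (SE of its log2 difference 0.13).

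Arm L did not differ detectably from arm C for any of the 9 in the homogenates, where 3 libraries of each arm allowed a test. With edgeR 0% of 13647 genes passed, 1217 had an unadjusted p under 0.05, and DESeq2 called 13 genes, none of them among the 9. Pum2 had 7.14, 6.30 and 6.90 CPM in C and 9.30, 7.66 and 9.67 CPM in L. All 3 L libraries lay above all 3 of C, and the log2 difference was 0.39 (SE 0.19, edgeR unadjusted p = 0.067, adjusted p = 0.584), from 71 to 121 counts a library. Tia1 had 292, 295.5 and 288 CPM in C and 280, 272 and 259 CPM in L, with L below C in CPM but not in TMM-scaled CPM (223 to 245 against 244 to 269), and the log2 difference was -0.10 (SE 0.07, edgeR adjusted p = 0.691). Groups apart in CPM, as for these 2 of 9, were found for 15.7% of all genes.

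The other 7 lay within the spread of the arms. Cpeb1 stood at 115 ± 17.8 CPM in the control arm against 100.2 ± 7.79 in L (SD, n = 3), a log2 difference of -0.19 (SE 0.13), and Cpeb4 at 198 ± 3.40 and 197 ± 7.15 CPM (SD, n = 3), a difference of 0.00 (SE 0.07). Fmr1 was at 148 ± 9.03 and 144 ± 12.7 CPM, Stau2 at 212 ± 4.75 and 204 ± 19.4 CPM and Cpeb3 at 140.1 ± 1.14 and 143 ± 5.44 CPM (SD, n = 3). The log2 differences of Fmr1, Stau2 and Cpeb3 were -0.03, -0.05 and 0.04, each smaller than its SE.

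In the synapse fraction the arms were tested across the 3 days with day as a block, and 0% of 13363 genes passed in edgeR, with 227 at an unadjusted p under 0.05 and 0 called by DESeq2. The spread in this fit also takes in the day 6 pair, whose arms differed more than those of days 1 and 20, so a lack of calls does not show that the arms were alike. The largest differences among the 9 were those of Stau1 at 0.26 (SE 0.13) and Tia1 at 0.24 (SE 0.14, edgeR adjusted p = 0.91 for both). Within a day there is 1 library per arm and no test. No pair of libraries differed by 2-fold in any of the 9 on any day (log2 ratio after TMM scaling, prior count 2), against 1.87% of genes on day 1, 22.2% on day 6 and 1.74% on day 20. Pum2 on day 6 passed 2-fold on library totals or with a prior count of 0.5. On day 1 Tia1 stood at a log2 ratio of 0.21 (95% counting interval 0.11 to 0.31), and the intervals of the other 8 held 0. On day 20 Stau1 stood at 0.24 (0.09 to 0.39) and Cpeb4 at 0.12 (0.01 to 0.22), and those of the other 7 held 0.

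On day 6 the 9 genes scattered in both directions between the arms, as did genes in general. Pum2 (log2 ratio 0.98, 95% counting interval 0.49 to 1.54), Tia1 (0.65, 0.50 to 0.80), Stau1 (0.57, 0.38 to 0.78), Cpeb4 (0.25) and Cpeb3 (0.22) were higher in the L library. Cpeb1 (-0.73, -1.005 to -0.47), Stau2 (-0.46, -0.56 to -0.35), Cpeb2 (-0.25) and Fmr1 (-0.20) were lower. The intervals of all 9 lay off 0, while the median absolute deviation over all genes of the pair was 0.40, against 0.14 on day 1 and 0.14 on day 20. These intervals hold counting error alone, and the share of all genes with an interval off 0 was not computed for any day. The number of members off 0 is therefore not a result about the 9. With the homogenates in the fit, the test of whether L minus C differed between the fractions on day 6 called Tia1 alone among the 9 (log2 difference of differences 0.71, SE 0.15, edgeR adjusted p = 0.0146), and 18.2% of all genes. It rests on 1 SYN library of each arm, and the call ended with limma-voom (adjusted p = 0.0605) and without HOM C replicate 1 (edgeR adjusted p = 0.0515). Over all genes that test made 2569 calls, 58.7% of them higher, against 276 with limma-voom, 1390 without HOM C replicate 1, and 68.2% higher on library totals.

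**Figure D4:**
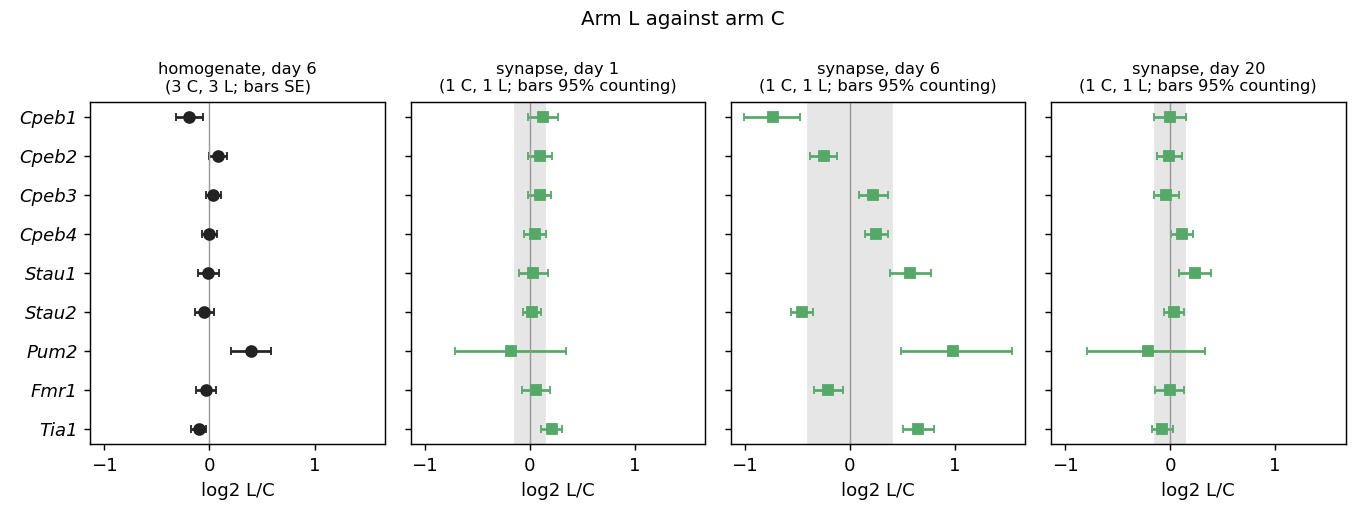
Log2 ratio of arm L to arm C for each gene, in the homogenates (edgeR estimate ± SE, 3 libraries of each arm) and in the 3 SYN pairs (1 library of each arm, bars are 95% counting intervals, grey is 1 median absolute deviation of all genes around their median). The SYN points stay near 0 on days 1 and 20 and spread from -0.73 (Cpeb1) to 0.98 (Pum2) on day 6.

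Other genes of RNA granules and local translation, in 6 lists of paralogues, polyadenylation and cap-binding partners, FMRP and microRNA partners, transport proteins, stress granule proteins and processing body proteins, were read from the same fits. In SYN of days 1 and 20 against HOM, 43 of 70 tested were lower and 7 higher, with a median log2 difference of -0.34, where 58.6% of all genes passed, 30.1% as lower, around a median of -0.04. The lowest p among them belonged to Cpsf2 (-0.75, SE 0.07), a subunit of the cleavage and polyadenylation factor that CPEB1 contacts, the helicase gene Ddx3x (-0.68, SE 0.06), the decapping enzyme gene Dcp2 (-0.58, SE 0.06) and Syncrip (-0.61, SE 0.06), whose product is found in transport granules. With TMM scaling the other direction held Eif4ebp2 (0.75, SE 0.11), which encodes the main brain repressor of the cap-binding protein, the scaffold gene Sympk (0.34, SE 0.06), the neuronal Elavl3 (0.29, SE 0.07) and Tob2 (0.59, SE 0.15), all with an edgeR adjusted p of 0.00303 or less. In CPM, Eif4ebp2 alone of these 4 lay above every homogenate (27.6 to 35.4 against 17.3 to 27.2), and the other 3 overlapped them.

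On day 6, 46 of 70 were lower in SYN than in HOM and 7 higher, with a median of -0.50, where 67.3% of all genes passed, 38.5% as lower, around a median of -0.22. Stress granule genes were lower in 7 of 8 and higher in 0, and FMRP and microRNA partners lower in 11 of 13 and higher in 0. Processing body genes were lower in 8 of 12 and higher in 1, transport genes lower in 9 of 16 and higher in 2, polyadenylation and cap-binding partners lower in 8 of 17 and higher in 4, and the paralogues lower in 3 of 4 and higher in 0. Those with the smallest p were the helicase gene Mov10 (-3.43, SE 0.23, over SYN libraries as unlike as 64 counts in C and 2 in L), Cpsf4 (-2.16, SE 0.18), Elavl2 (-1.08, SE 0.10) and Atxn2l (-0.93, SE 0.08). Of the 7 that passed as higher with TMM, those with the smallest p were Ybx1 (0.57, SE 0.11), whose product packs mRNA, Pabpc4 (0.56, SE 0.11), a poly(A)-binding protein gene, Lsm14a (0.42, SE 0.09) and Tob1 (0.41, SE 0.10). None of these 4 was above the homogenates in CPM: Pabpc4 (24.8 and 25.7 against 26.3 to 31.7) and Lsm14a (36.8 and 37.9 against 44.6 to 50.5) lay below all of them, and Ybx1 and Tob1 overlapped them. Between the SYN days, 18 of 68 were lower on day 6 and 5 higher with TMM, where 33.5% of all genes passed and 15.2% were lower. Named by the smallest p were Atxn2l (-1.09, SE 0.10), Cyfip2 (-0.67, SE 0.07), Edc4 (-1.17, SE 0.14) and Ewsr1 (-0.79, SE 0.09) on one side and Tob1 (1.011, SE 0.12), Purb (0.34, SE 0.06), Syncrip (0.42, SE 0.11) and Lsm14a (0.47, SE 0.13) on the other. In CPM only Tob1 of the latter 4 was above the other SYN days (50.9 and 66.2 against 36.8 to 42.9), while Purb (859.8 and 944 against 995 to 1047) and Lsm14a (against 38.0 to 39.2) were below and Syncrip overlapped. Of the same genes, 0 passed between the arms in HOM or across SYN days in edgeR.

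Over the 12 libraries, the genes whose level followed the 9 most closely were picked by Pearson's r of log2(CPM + 1) over 9391 genes whose mean reached 10 CPM. The points share fraction, table and scaling, so these values describe the profile only. Cpeb1 was nearest to Chn1 (r = 0.994) and Psmd11 (0.992), Cpeb2 to Gad2 (0.993) and Fpgt (0.988), and Cpeb3 to Fig4 and Tmed8 (both 0.997). Cpeb4 was nearest to Hook1 (0.995) and Eif4enif1 (0.994), Stau1 to Med27 and Rassf5 (both 0.990), and Stau2 to Cpeb1 (0.984) and Heatr5b (0.984). Fmr1 was nearest to Cd2ap and Cul2 (both 0.994), and Tia1 to Skiv2l2 (0.997) and Dennd5b (0.996). Pum2, the gene with the fewest counts, had the weakest likeness, to Hjurp (0.957) and R3hcc1l (0.946).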

How the data were processed

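The authors deposited 4 tables of unnormalized read counts by gene, made from reads of ribosome-depleted, dUTP-stranded libraries, per the labels' protocols. The submitters' processing notes name HISAT2 2.0.4, HTSeq 0.9.1, cutadapt 1.9.3, edgeR and the build mm10; for the annotation release, the strand setting and any gene filter, the sources used here give nothing. Libraries were grouped by title, and tables were joined by Ensembl identifier. Library totals ran from 9100192 to 15950350 counts; intervals and floors cover counting error only. No 2 libraries agreed within sampling noise (lowest chi-square per degree of freedom 3.78).

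Tests used edgeR 4.0.16 (filterByExpr, TMM, robust quasi-likelihood) in R 4.3.3, checked on simulated data, with DESeq2 1.42.0, limma-voom (limma 3.58.1), other scalings, no filter and left-out libraries as alternatives. CPM used library totals; TMM-scaled CPM used factors over all 12 libraries. Exon lengths, coordinates and 3′ UTRs are those of GENCODE M21, matched for 9 of 9 genes. Exact Clopper-Pearson intervals were used. The genes, lists, tests and naming rule were chosen with earlier results of these data known. The rule named the 9 genes, up to 4 genes of the other lists with the smallest p in each direction of a comparison, and the 2 most alike genes per member, leaving out predicted genes. Of 73 symbols in the other lists 72 were listed; Tob2 is ENSMUSG00000048546. 1 gene of these lists entered the counts but its own values are not reported here.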

Additional observations from a re-analysis of the deposited data

Results flagged for a closer look

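Tia1 was picked out because the test of whether L minus C differs between the synapse fraction and the homogenates on day 6 passed its threshold. That test has 1 SYN library per arm, so its spread comes from the homogenates alone, and the SYN pair differed widely over all genes (median absolute deviation 0.40, Tia1 at percentile 81.1). The log2 difference of differences was 0.71 (SE 0.15, edgeR adjusted p = 0.0146), with Tia1 at 43.3 CPM in SYN C and 71.8 CPM in SYN L, and at 292 ± 3.70 CPM in HOM C and 270.2 ± 10.7 in HOM L (SD, n = 3). On days 1 and 20 the SYN pairs stood at log2 ratios of 0.21 and -0.07. The adjusted p ran from 0.00521 to 0.0605 over 11 alternatives, and the same test called 18.2% of all genes.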

How the results depend on the processing

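Of 1002 recomputed values, 897 stayed the same, 51 turned, 29 moved, 7 lost and 18 gained a call, and causes were not tested. For a gene's fitted difference, the same means its direction and side of the threshold. For a number of calls it means a similar number, and for a pair ratio a value inside its counting interval. For homogenate L against C, DESeq2 called 13 genes, the replicate block 2, and leaving out a library 0 to 3 (edgeR otherwise). The HOM column headers share a number between a C and an L library, which the main test did not use as a pair. Correlations of deviations within a number were 0.009, 0.254 and 0.179, and not every library was closest to its own number. These few values cannot decide whether the libraries are paired. Cpeb4 there turned to 0.0029 (DESeq2), 0.0025 (RLE scaling) and 0.0017 (replicate block). For synapse L against C, 1 gene was called with limma-voom and 1 on days 1 and 20 alone, a setting chosen after seeing the data, where Cpeb1, Cpeb2, Stau2, Fmr1 and Pum2 turned to 0.062, 0.046, 0.032, 0.027 and -0.20. On library totals, 6 members and 6565 of 13363 genes passed for synapse day 6 against the other days. Cpeb2, Cpeb4, Pum2 and Fmr1 turned to -0.43, -0.24, -0.028 and -0.26 there. For synapse against homogenate on day 6, 9 members and 11151 of 14137 genes passed on library totals, and Pum2 turned to -0.67. Cpeb1 between days 20 and 1 turned to 0.0028 with limma-voom. The test of arm by fraction called 276 genes and 0 members with limma-voom. In the synapse pairs 1 member passed 2-fold on library totals and 1 with a prior count of 0.5.

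Leaving out single libraries gave these ranges. In homogenate L against C: Cpeb4 -0.032 to 0.035, Stau1 -0.063 to 0.079, Stau2 -0.097 to 0.035, Fmr1 -0.10 to 0.037. In synapse L against C: 1 to 3 genes, Cpeb1 -0.38 to 0.062, Cpeb2 -0.15 to 0.046, Stau2 -0.24 to 0.032, Pum2 -0.20 to 0.39, Fmr1 -0.13 to 0.027. In synapse day 6 against the other days: 3722 to 8627 genes, 2 to 6 members, Cpeb2 -0.11 to 0.24, Stau2 -0.36 to 0.18, Pum2 -0.15 to 1.004. Between days 20 and 1: 0 to 4 genes, Cpeb1 -0.24 to 0.26, Cpeb2 -0.061 to 0.19, Cpeb3 -0.097 to 0.070, Cpeb4 -0.0042 to 0.11, Stau1 -0.26 to 0.087, Stau2 -0.17 to 0.10, Pum2 -0.35 to 0.28, Tia1 -0.13 to 0.35. In synapse against homogenate on day 6, where leaving out a SYN library left the contrast of the other arm alone: Cpeb2 -0.31 to 0.059, Cpeb4 -0.20 to 0.010, Stau2 -0.31 to 0.14, Pum2 -0.19 to 0.38. In arm by fraction: 1390 to 2704 genes and 0 to 2 members. For synapse of days 1 and 20 against homogenate: Stau1 -0.084 to 0.016. Pum2, with 50 to 121 counts a library, is the gene whose precision depth limits most.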

Other observations

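Some genes of the other lists had near-empty counts in only 1 of the 2 day 6 SYN libraries. Cpsf1, a subunit gene of the cleavage and polyadenylation factor, had 70 counts in SYN C and 0 in SYN L, where a count of 0 allows up to 0.257 CPM, against 20 to 30 counts in each SYN library of days 1 and 20 and 11 to 41 in each homogenate. Igf2bp2, which encodes an mRNA transport protein, had 0 counts in SYN C and 16 in SYN L, against 1 to 7 in the other SYN libraries and 5 to 20 in the homogenates. Mov10, an RNA helicase gene, had 64 counts in SYN C and 2 in SYN L, against 120 to 133 and 151 to 243. None of the 9 main genes had fewer than 50 counts in any library.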
